A study of Homo sapiens with 2 samples.

Results

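The 10 genes described here write, copy or erase methylation of cytosine in DNA: DNMT1, DNMT3A, DNMT3B, DNMT3L, UHRF1, UHRF2, TET1, TET2, TET3 and TDG. They were taken by symbol from the 62700 genes of the deposited gene table, and all 10 were found. RNA came from TCam-2, a human cell line derived from a seminoma, which is a germ cell tumour of the testis, after transduction with DDX53-FLAG, a tagged DEAD-box RNA helicase. The series holds 1 group with 2 replicates of these cells, and nothing in the labels says whether the replicates were separate transductions. The promoter of the construct and the number of clones are not given in the sources used here. The design sets the cells against GFP-FLAG and untransduced TCam-2 cells to find genes that change with DDX53. The series holds no library of those control cells, so every comparison below is between genes or between the 2 replicates. None of these comparisons measures an effect of DDX53.

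In mammals a methyl group is placed mainly on cytosines that precede guanine. DNMT3A and DNMT3B set new marks, helped by DNMT3L, which binds them but has no catalytic activity of its own. DNMT1 copies marks to the new strand after replication, guided by UHRF1, which recognises DNA methylated on a single strand. The TET enzymes oxidise methylcytosine with iron and 2-oxoglutarate as cofactors, and TDG cuts out the further oxidised bases so that repair can restore a plain cytosine. Early germ cells and seminomas are known for low methylation of their genome, whereas embryonal carcinoma, another germ cell tumour, is more methylated and is known for high DNMT3B and DNMT3L.

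Reads in genes numbered 24137664 for replicate 1 and 22198929 for replicate 2. DDX53 itself was at 6.05 and 6.62 CPM (reads of a gene relative to all reads in genes, scaled to the same total in each library). Markers of seminoma and early germ cells were detected in 12 of 12 genes, at 1 CPM or more in both libraries. By the replicate test described later, which called 13.1% of all genes, 2 of the 12 were higher and 3 lower in replicate 2. Detection was lower for markers of embryonal carcinoma (3 of 7), testis somatic cells (2 of 9) and fibroblasts and blood (1 of 6, LUM). These counts depended on the threshold: at 0.1 CPM they were 5, 4 and 2. SOX2, a marker of embryonal carcinoma, missed 1 CPM narrowly, with 0.994 CPM in replicate 1 and 1.08 CPM in replicate 2. PTPRC, a marker of blood cells, had no read in the gene table and no TPM, so that its level could be at most 0.124 CPM (replicate 1) or 0.135 CPM (replicate 2), the value of 3 reads. CD68 also had no read there, but the transcript table lists it at 0.0927 and 0.218 TPM.

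The catalytic parts of the enzymes are shown first, because the transcripts were later sorted by whether their coding sequence holds them. Each line gives bases of the most abundant transcript of the gene on GRCh38 (GENCODE 29), read 5′ to 3′ along the transcript, with 18 flanking bases on each side. Capitals mark the codons for proline, cysteine and then asparagine or glutamine in the methyltransferases, for histidine, any residue and aspartate that hold iron in the TETs, and for the catalytic glycine, isoleucine, asparagine and proline stretch of TDG.
DNMT1 (DNMT1-201, chr19:10140105-10140149, minus strand): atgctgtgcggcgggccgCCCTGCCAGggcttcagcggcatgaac
DNMT3A (DNMT3A-203, chr2:25240662-25240706, minus strand): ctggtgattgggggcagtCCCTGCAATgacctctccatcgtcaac
DNMT3B (DNMT3B-202, chr20:32800859-32800903, plus strand): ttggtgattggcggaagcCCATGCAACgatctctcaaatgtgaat
TET1 (TET1-201, chr10:68682917-68682961, plus strand): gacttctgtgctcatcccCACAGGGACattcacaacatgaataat
TET2 (TET2-203, chr4:105269691-105269735, plus strand): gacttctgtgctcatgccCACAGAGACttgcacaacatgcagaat
TET3 (TET3-202, chr2:74093610-74093654, plus strand): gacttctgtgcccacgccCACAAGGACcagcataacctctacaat
TDG (TDG-202, chr12:103980058-103980925, plus strand, across an intron): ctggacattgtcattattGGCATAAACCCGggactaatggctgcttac

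All 10 genes were detected in both libraries. TET2 had the fewest reads, 389 and 334. The most were 3998 for TET1 in replicate 1 and 3745 for DNMT1 in replicate 2, where TET1 had 3691. Levels of different genes were compared per length, as TPM (transcript levels per length, scaled to the same total in each library and estimated by salmon) summed over the transcripts of a gene. The order from the highest to the lowest mean was DNMT3L, TDG, DNMT1, UHRF2, DNMT3B, DNMT3A, TET1, UHRF1, TET3 and TET2. In 7 of the 9 neighbouring pairs both libraries of the higher gene lay above both libraries of the next. UHRF2 and DNMT3B overlapped, and so did DNMT3B and DNMT3A. An exact permutation test of 2 libraries against 2 cannot reach 0.05, so no pair was tested and the order is a description. It depended on the measure of length: over merged exons TET1 moved from place 7 to 3, UHRF2 from 4 to 8 and TDG from 2 to 5, while DNMT3L stayed first and TET3 and TET2 last.

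**Figure D1:**
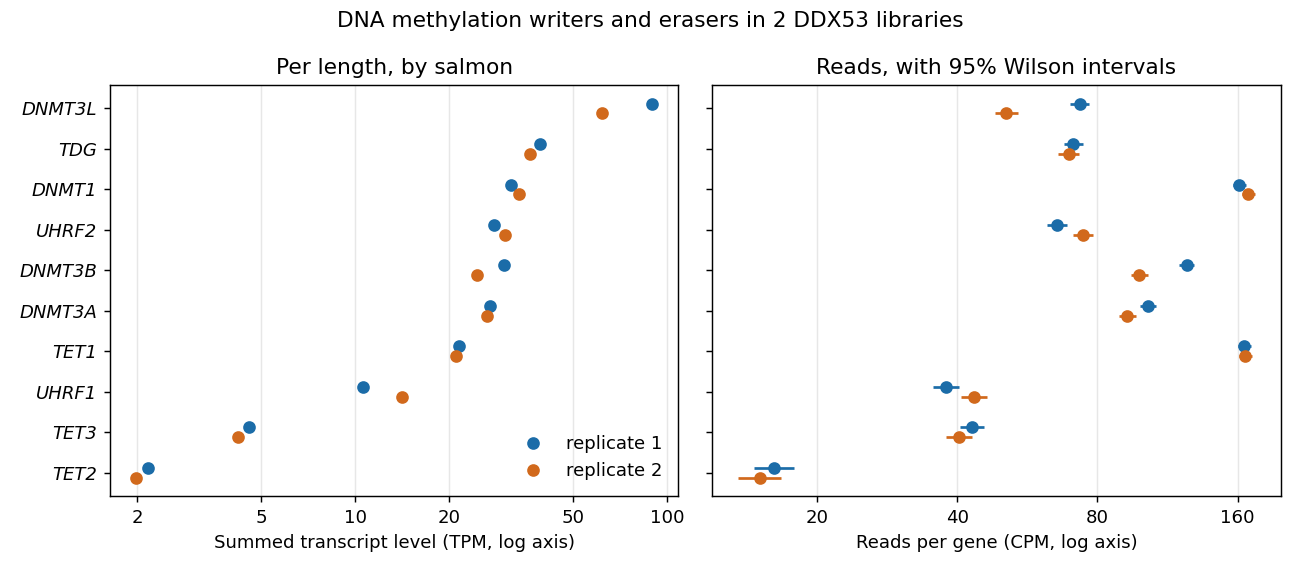
Levels of the 10 genes in replicate 1 (blue) and replicate 2 (orange), as summed TPM at left and as CPM with 95% Wilson intervals at right, both on log axes and both in the order of mean TPM. DNMT3L is highest per length at 89.8 and 62.0 TPM, TET2 is lowest at 2.17 and 1.98 TPM, and the long TET1 transcript is among the highest in reads.

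Among the genes that copy methylation, DNMT1 (ENSG00000130816.17, chromosome 19, 10133345 to 10231286, minus strand) was the most read. It had 161 CPM in replicate 1 (95% Wilson interval, 156 to 167) and 169 CPM in replicate 2 (163 to 174). Its summed level was 31.6 and 33.6 TPM, a mean of 32.6 ± 1.45 TPM (SD, n = 2), above 71.9% of the 13380 detected genes with a TPM. UHRF1 (ENSG00000276043.5, chromosome 19, 4903080 to 4962154, plus strand), the guide of DNMT1, was lower, at 37.8 CPM (35.4 to 40.3) and 43.5 CPM (40.8 to 46.3). Its 10.6 and 14.2 TPM put it near the middle of the detected genes, with 49.8% of them lower. UHRF2 (ENSG00000147854.17, chromosome 9, 6413151 to 6507054, plus strand), the paralog of UHRF1, had 65.4 CPM (62.2 to 68.7) and 74.5 CPM (71.0 to 78.1). At 27.8 and 30.2 TPM it stood above UHRF1 in both libraries.

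The ratio of UHRF1 to UHRF2 was 0.380 in replicate 1 and 0.469 in replicate 2 by TPM (mean 0.425 ± 0.0627, SD, n = 2). It depended on how length was counted. Over the merged exons of each gene, the ratio of CPM per kb was 1.12. The ratio of UHRF1 to DNMT1 was 0.334 and 0.421 by TPM, so that the guide was below the enzyme in both libraries.

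Among the genes that set new methylation, the accessory factor DNMT3L (ENSG00000142182.9, chromosome 21, 44246339 to 44262216, minus strand) had the highest level of all 10 genes per length. It had 1768 reads in replicate 1 and 1132 reads in replicate 2, which is 73.2 CPM (69.9 to 76.7) and 51.0 CPM (48.1 to 54.1). The mean of its summed level was 75.9 ± 19.6 TPM (SD, n = 2), above 86.1% of detected genes. DNMT3B (ENSG00000088305.19, chromosome 20, 32762385 to 32809356, plus strand) had 124 CPM (120 to 129) and 98.4 CPM (94.4 to 103). Its level was 30.1 and 24.6 TPM. DNMT3A (ENSG00000119772.19, chromosome 2, 25227855 to 25342590, minus strand) had 103 CPM (98.8 to 107) and 92.8 CPM (88.9 to 96.9). At 27.0 and 26.5 TPM it lay between the 2 values of DNMT3B.

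The ratio of DNMT3B to DNMT3A was 1.12 in replicate 1 and 0.927 in replicate 2 (mean 1.02 ± 0.133, SD, n = 2). By summed TPM, neither de novo enzyme was therefore the higher of the pair in both libraries. With CPM per kb of the TPM-weighted mean transcript length the ratio was 0.929 in replicate 1 and 0.846 in replicate 2, with DNMT3A higher in both. With CPM per kb of merged exons DNMT3B was higher in both, at 3.14 and 2.75. The mean over merged exons was 2.95, because the merged exons of DNMT3A span 12020 bases against 4630 for DNMT3B, while the leading transcript of DNMT3A has 3589. DNMT1 relative to the sum of DNMT3A and DNMT3B was 0.554 and 0.658. The 3 catalytic writers together exceeded the 3 TETs by a factor of 3.13 and 3.10 in TPM.

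Among the erasers, TET1 (ENSG00000138336.9, chromosome 10, 68560656 to 68694482, plus strand) led its family. It had 166 CPM in each library (161 to 171 in replicate 1 and 161 to 172 in replicate 2) and 21.6 and 21.1 TPM. TET3 (ENSG00000187605.16, chromosome 2, 73986404 to 74108176, plus strand) had 43.0 CPM (40.5 to 45.7) and 40.4 CPM (37.8 to 43.1), or 4.56 and 4.20 TPM. TET2 (ENSG00000168769.14, chromosome 4, 105145875 to 105279816, plus strand) had 16.1 CPM (14.6 to 17.8) and 15.0 CPM (13.5 to 16.7), or 2.17 and 1.98 TPM. The intervals of the libraries overlapped for each of the 3 genes, and the 3 genes did not overlap with each other.

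TET1 exceeded TET2 by a factor of 9.96 and 10.7 in TPM (mean 10.3 ± 0.500, SD, n = 2), and TET3 exceeded TET2 by 2.10 and 2.12. The factor for TET1 was 18.9 over merged exons, with the same order. TDG (ENSG00000139372.15, chromosome 12, 103965804 to 103988874, plus strand) had 71.0 CPM (67.7 to 74.4) and 69.3 CPM (65.9 to 72.9). Its 39.2 and 36.2 TPM were above 75.0% of detected genes.

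How far TPM can be trusted for each gene was checked by setting its CPM against the CPM that its TPM and transcript lengths predict. Over 13211 detected genes the median of that ratio was 1.10 in replicate 1 and 1.11 in replicate 2. The ratios were highest for DNMT1 (1.74 and 1.47) and DNMT3A (1.71 and 1.51), and lowest for DNMT3L (0.858 and 0.869) and TDG (0.889 and 0.908). The summed TPM of DNMT1 and DNMT3A is low next to their reads, and transcripts without a match in GENCODE 29 are not counted in it. With CPM divided by the TPM-weighted transcript length the order began DNMT3L, DNMT1, DNMT3A and DNMT3B, TDG moved to place 6, and the last 4 places were unchanged.

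The replicates were then compared for each gene. Replicate 2 had less of all 3 genes for new methylation, most of all DNMT3L, and more of UHRF1 and UHRF2, while DNMT1, the TETs and TDG did not pass the test. A two-sided exact binomial test on reads (edgeR, Benjamini-Hochberg adjusted over 15299 genes, threshold 0.05) called 5 of the 10 genes, 2 higher and 3 lower in replicate 2. Of all genes tested it called 13.1%, 6.78% higher and 6.35% lower. Among the 7013 genes with a mean CPM in the range of these 10, it called 16.3%. The test compares 2 libraries with counting noise, not conditions, and a difference between replicates has no replicate check.

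DNMT3L differed most. Ratios between the replicates use library sizes adjusted by TMM, as in the test, so they differ slightly from the quotient of the printed CPM. For DNMT3L the level in replicate 2 was 0.700 times that in replicate 1 (exact 95% interval for counting error, 0.649 to 0.755). The adjusted p was 6.5e-19 in edgeR's exact binomial test. The log2 difference of CPM + 1 was -0.51, number 13 from the bottom among the 9389 genes whose mean reached 10 CPM. All 3 of its measured transcripts were lower in replicate 2. DNMT3B followed with 0.795 times (0.752 to 0.841, adjusted p of 4.2e-14 in the exact binomial test), a log2 difference of -0.33 and place 111 from the bottom. DNMT3A differed least of the 3, at 0.908 times (0.856 to 0.963, adjusted p of 0.014 in the exact binomial test). In summed TPM the log2 difference of DNMT3A was -0.02 against -0.15 in CPM.

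UHRF2 was 1.15 times as high in replicate 2 (1.07 to 1.23, adjusted p of 0.0021 in the exact binomial test). UHRF1 was 1.16 times as high (1.06 to 1.27, adjusted p of 0.018 in the exact binomial test). In summed TPM the log2 difference was 0.39 for UHRF1 against 0.20 in CPM, and 0.11 for UHRF2 against 0.19. The intervals of the remaining ratios were 1.00 to 1.10 for DNMT1, 0.965 to 1.06 for TET1, 0.809 to 1.09 for TET2, 0.861 to 1.03 for TET3 and 0.916 to 1.05 for TDG. DNMT1 had an unadjusted p of 0.030 and an adjusted p of 0.15 in the exact binomial test, and was not called.

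**Figure D2:**
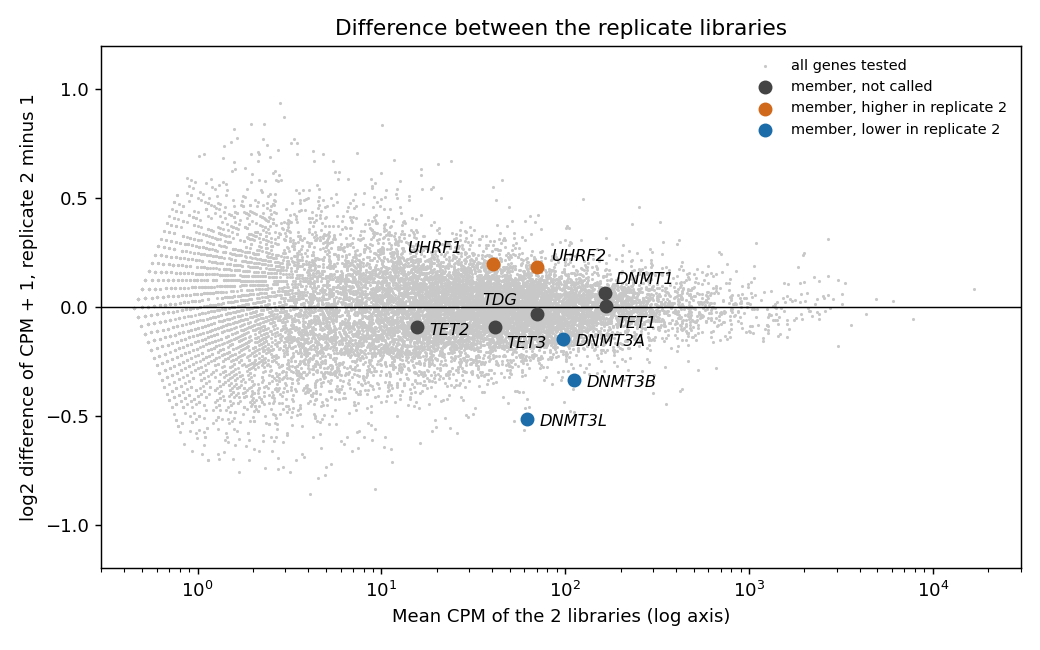
Log2 difference of CPM + 1 between the replicates (replicate 2 minus replicate 1) against the mean CPM on a log axis, for all 15299 genes tested (grey) and the 10 genes (large points: blue, called lower; orange, called higher; dark, not called). DNMT3L at -0.51 and DNMT3B at -0.33 lie at the lower edge of the cloud, and UHRF1 at 0.20 and UHRF2 at 0.19 lie in its upper part.

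Markers of embryonal carcinoma were set beside these values. Of 7 such genes, TNFRSF8 was called lower in replicate 2 (59 and 29 reads, adjusted p of 0.043 in the exact binomial test). GAL (325 and 252 reads), GDF3 (180 and 142 reads) and SOX2 (24 and 24 reads) were tested and not called. LEFTY1, LEFTY2 and ZFP42 had 10 reads or fewer in each library, and no marker of this list was at 0. The summed level of the list was 25.1 CPM in replicate 1 and 20.5 CPM in replicate 2. LUM, a fibroblast marker, was called higher in replicate 2 (224 and 290 reads, log2 difference of 0.45, adjusted p of 0.0017 in the exact binomial test). The other 5 fibroblast and blood markers had at most 8 reads in a library, and the summed level of that list was 9.65 and 13.6 CPM. The part of either list in the differences of the 10 genes was not tested. Fewer cells that carry a transcript and less transcript per cell cannot be told apart in RNA of a whole culture. The summed level of the seminoma and early germ cell markers was 5301 and 5270 CPM.

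The transcript table was used to ask which forms of each gene were present. Of 95 transcripts of the 10 genes matched to GENCODE 29, 48 had a TPM above 0 in at least 1 library. The same transcript led in both libraries for all 10 genes, and each leading transcript was protein-coding. For 11 of the 95, among them the leading transcript of 6 genes, the version number in the table differs from that of GENCODE 29, so ends or exons may differ from those given here. The depth behind a transcript's TPM is unknown, so the shares carry no interval for counting error.

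By TPM of the matched transcripts, DNMT3A was present mainly as its short form. Its reads were 1.71 and 1.51 times the prediction from these transcripts, so the shares may not describe all of its reads. DNMT3A-203, with 2169 coding bases or 723 codons, held 76.9% and 82.7% of the TPM of DNMT3A in the replicates (79.8% ± 4.11, SD, n = 2). The full-length DNMT3A-202, with 912 codons, held 7.46% and 6.85%. DNMT3A-206, which starts with the long form but has 166 codons and no catalytic motif, held 3.95% and 5.23%. The short form is known as DNMT3A2 and is the form associated with embryonic stem cells and germ cells. Its annotated start lies 89.6 kb downstream of that of DNMT3A-202, and the forms share 2097 coding bases. The 2 transcripts that start within 1000 bases of DNMT3A-203 carried 81.4% and 85.3% of the TPM, and the 4 that start near DNMT3A-202 carried 12.0% and 12.6%.

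The first coding bases of both forms are printed because they tell them apart, with the start codon in capitals. The 72 bases of DNMT3A-203 are not in the coding sequence of DNMT3A-202. Of the 639 coding bases that are in DNMT3A-202 and not in DNMT3A-203, the first 60 are given.
DNMT3A-203 (chr2:25249657-25252197, minus strand, across introns): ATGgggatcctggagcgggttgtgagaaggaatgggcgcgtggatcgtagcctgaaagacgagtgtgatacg
DNMT3A-202 (chr2:25313925-25313984, minus strand): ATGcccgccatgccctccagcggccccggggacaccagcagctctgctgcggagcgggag

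The promoter windows of both starts (RefSeq, GRCh38.p14, each 300 bases on the minus strand) follow, since the shares of TPM differ between them. CG, the pair of bases that can be methylated, is in capitals. On the letters CG alone, which read the same on either strand, the window of the short form holds 28 and that of the long form 46. The median of all 35116 windows is 14, and 26.2% of them hold at least 28 while 2.89% hold at least 46. The RefSeq starts lie 4 and 40 bases from the GENCODE starts of DNMT3A-203 and DNMT3A-202. No methylation was measured here.
Short form (chr2:25252266-25252565): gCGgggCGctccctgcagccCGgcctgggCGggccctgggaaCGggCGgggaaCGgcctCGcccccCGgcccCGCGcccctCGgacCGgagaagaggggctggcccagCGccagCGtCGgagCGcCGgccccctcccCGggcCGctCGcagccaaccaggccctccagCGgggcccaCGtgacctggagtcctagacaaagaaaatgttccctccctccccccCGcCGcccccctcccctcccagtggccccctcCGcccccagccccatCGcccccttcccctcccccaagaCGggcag
Long form (chr2:25341876-25342175): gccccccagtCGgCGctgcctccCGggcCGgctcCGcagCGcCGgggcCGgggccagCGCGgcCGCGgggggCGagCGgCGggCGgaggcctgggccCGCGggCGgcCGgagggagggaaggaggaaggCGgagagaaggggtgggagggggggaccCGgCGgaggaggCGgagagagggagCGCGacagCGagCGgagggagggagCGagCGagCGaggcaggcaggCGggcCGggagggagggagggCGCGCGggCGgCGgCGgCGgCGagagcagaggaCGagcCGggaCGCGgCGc

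DNMT3B was read almost wholly as the longest form. DNMT3B-202, with 853 codons, held 97.4% in replicate 1 and 94.0% in replicate 2. DNMT3B-204, which lacks exon 10 of that transcript and has 833 codons, held less, 4.32% ± 2.38 (SD, n = 2). No other DNMT3B transcript of the 6 had a TPM above 0, and all 6 hold the catalytic motif in their coding sequence. The exon that tells the forms apart is shown in capitals with 15 flanking bases on each side.
DNMT3B exon 10 (chr20:32793536-32793595, plus strand): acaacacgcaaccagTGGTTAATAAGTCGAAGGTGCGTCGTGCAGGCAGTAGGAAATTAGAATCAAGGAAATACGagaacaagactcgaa

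DNMT1 was divided between 2 full-length forms. DNMT1-201, with 1616 codons, held 46.5% in replicate 1 and 57.5% in replicate 2, and DNMT1-202, with 1632 codons, held 33.1% and 34.2%. DNMT1-207, a short transcript with a retained intron, held 13.9% in replicate 1 (4.38 TPM) and 1.00% in replicate 2 (0.338 TPM). Protein-coding transcripts held 79.6% and 91.7% of the gene's TPM.

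DNMT3L had 3 transcripts, all protein-coding, in nearly the same shares in both libraries. DNMT3L-204 held 61.0% and 64.0%, DNMT3L-201 held 27.5% and 24.3%, and the shorter DNMT3L-202, with 288 codons, held 11.6% and 11.7%. DNMT3L-201 and DNMT3L-204 differ in coding sequence by a single codon at the start of exon 12, with 387 and 386 codons. That codon is in capitals, with 15 flanking bases on each side. None of the 4 annotated DNMT3L coding sequences holds the catalytic motif printed above.
DNMT3L exon 12 junction (codon at chr21:44246563-44246565, minus strand): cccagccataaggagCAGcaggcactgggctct

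UHRF1 was led by UHRF1-207, with 793 codons, at 82.6% in replicate 1 and 92.2% in replicate 2. UHRF1-205, with 857 codons, held 15.3% and 4.63%, or 1.61 and 0.655 TPM. In UHRF2 several noncoding transcripts had a share. UHRF2-201, with 802 codons, held 59.0% and 63.3%, the noncoding UHRF2-212 and UHRF2-213 held 12.5% and 5.97% in replicate 1 and 8.85% and 6.63% in replicate 2, and UHRF2-211, with a retained intron, held 8.93% and 8.54%. Protein-coding transcripts held 66.2% and 71.2% of its TPM, the lowest share of the 10 genes in both libraries. With protein-coding transcripts alone, UHRF2 moved from place 4 to place 7 of the order.

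Among the erasers, TET3-202 held 99.7% and 100%, TET2-203 held 93.3% and 94.3%, and TDG-202 held 90.5% and 94.6%. TET1 had a single matched transcript, so its share of 100% follows from the match, and a shorter TET1 form could not be told from the long form. Transcripts whose coding sequence holds the catalytic motif carried a median of 97.7% of TPM over the 7 catalytic genes. By gene and replicate they carried 100% for DNMT3B, TET1 and TET3, 97.0% and 98.5% for TET2, and 94.7% and 96.7% for TDG. The share was 89.4% and 92.7% for DNMT3A, and 79.6% and 91.7% for DNMT1.

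**Figure D3:**
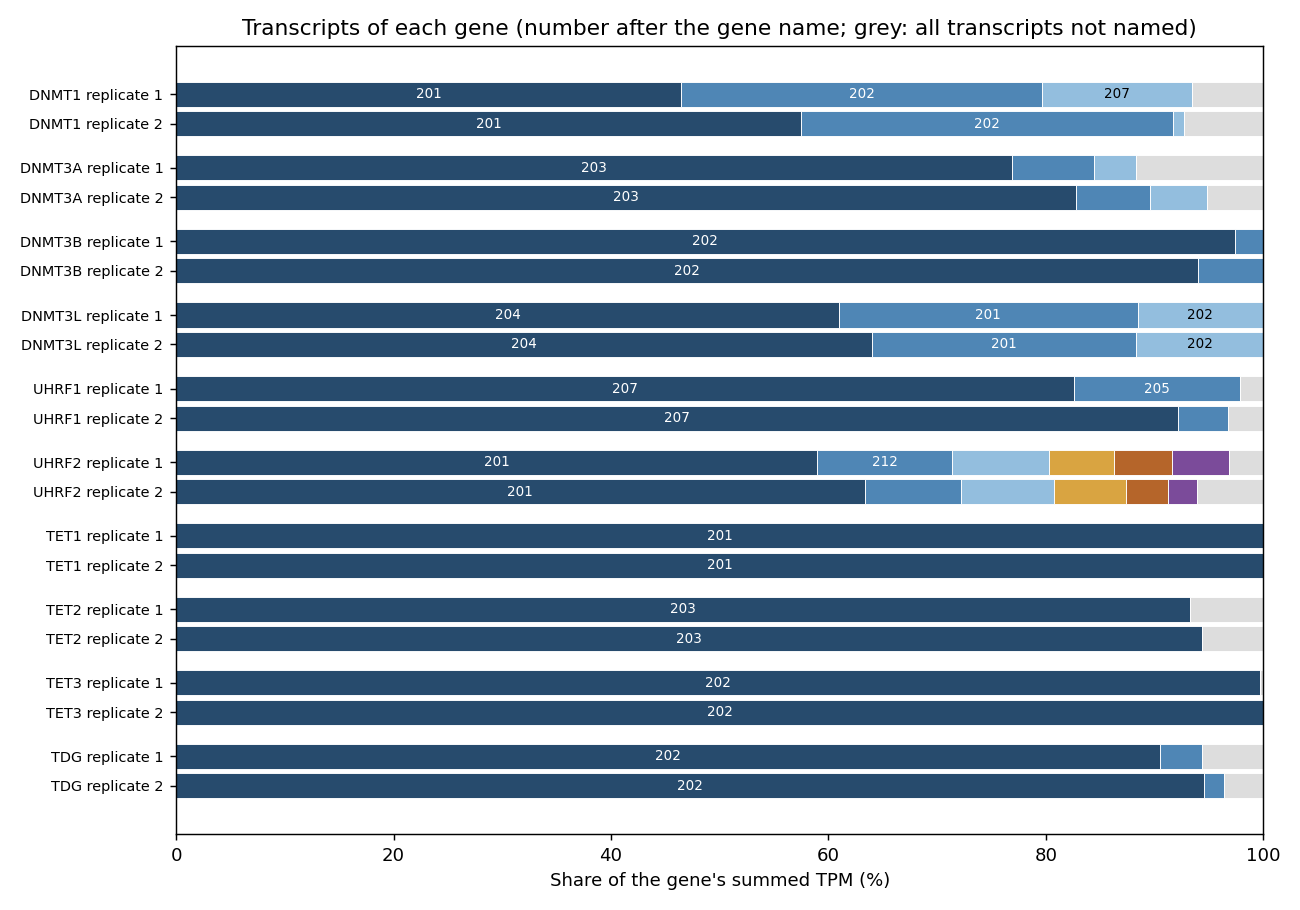
Share of each gene's summed TPM in its transcripts, in percent, 1 bar per gene and replicate. Numbers in the bars are the transcript numbers, and grey is the sum of transcripts below 1 TPM and 5%. The short DNMT3A-203 and DNMT3B-202 dominate their genes, DNMT1 is divided between 201 and 202, and the DNMT1-207 block is 13.9% in replicate 1 and 1.00% in replicate 2.

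Around the 10 genes, 79 others in 7 lists were described, of which 59 were detected. The replicate test called 30.5% of these 59, 8 higher and 10 lower in replicate 2, and 13.1% of all genes. The partners of maintenance and targeting were detected in 17 of 18. Levels in these lists are given as CPM, which grows with transcript length, so they are not an order of the genes per length. The most reads fell on TRIM28, a corepressor that protects imprints, at 1270 ± 54.1 CPM (SD, n = 2), PCNA, the replication clamp, at 350 ± 12.9 CPM (SD, n = 2), and NSD1, a histone methyltransferase, at 260 ± 37.7 CPM (SD, n = 2). In TPM, TRIM28 had 925 and 889 and PCNA had 404 and 419, but NSD1 had 26.5 and 27.7, below USP7, HELLS and EHMT1, with its reads in replicate 1 over 4-fold above the prediction from TPM. DPPA3, which keeps UHRF1 from chromatin, had the fewest reads of those detected, with 2.03 and 1.44 CPM, while ZNF445 was lower per length (1.28 and 1.26 TPM against 3.19 and 2.30 TPM). ZFP57, which guards imprints, had no read in either library. Between the replicates 11 of the 17 tested were called, 3 higher and 8 lower in replicate 2, where the test called 13.1% of all genes and 16.3% of genes in the CPM range of the 10. TRIM28, PCNA and NSD1, all called, lie above that range, and ZNF445 and DPPA3, not called, lie below it. With many reads the test calls small differences, such as log2 differences of -0.087 for TRIM28 and 0.075 for PCNA. No share matched to the reads of this list was computed. The median log2 difference was -0.12 against -0.0074 for all genes tested.

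The 8 called lower were TRIM28, NSD1, USP7, HELLS, SETD2, EHMT1, PRDM1 and QSER1, and PRDM1 is also a marker of early germ cells. NSD1 had the largest of these differences, from 287 to 234 CPM (log2 difference of -0.30, adjusted p of 3.7e-25 in the exact binomial test). SETD2, which like NSD1 marks chromatin for the de novo enzymes, went from 125 to 114 CPM. HELLS, a remodeller needed for methylation of repeats, went from 152 to 140 CPM. In TPM the direction was the opposite for NSD1 (26.5 and 27.7) and SETD2 (5.25 and 6.89), while the rest of the 8 were lower in TPM too. The reads of SETD2 in replicate 1 were 4.42 times the prediction from TPM. PCNA, EHMT2 and CDCA7, a partner of HELLS, were called higher. CDCA7 had the largest of those differences, from 63.5 to 73.2 CPM (log2 difference of 0.20). EHMT1 and EHMT2, which form a histone methyltransferase together, were called in opposite directions, with log2 differences of -0.16 and 0.17.

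All 8 genes of the list named methyl-CpG readers were detected. Whether each of them, MBD3 included, binds methylated DNA was not tested. MBD3, MBD1 and ZBTB33 had the most reads, at 90.1, 74.6 and 51.3 CPM in the mean, and MBD2 the fewest, at 16.1 CPM. Per length MBD2, at 25.1 and 25.2 TPM, was close to MBD1, at 26.7 and 26.3 TPM, and above ZBTB33, at 12.6 and 13.8 TPM. ZBTB33 was the single gene called of the 8, where the test called 13.1% of all genes. It was higher in replicate 2, with 48.1 and 54.6 CPM. All 9 cofactors and partners of the TETs were detected, and 1 was called higher and 1 lower in replicate 2. IDH1, which makes 2-oxoglutarate, was at 474 and 490 CPM and was called higher in replicate 2. OGT, which binds the TETs, was at 180 and 156 CPM and was called lower, but in TPM it was not lower (29.3 and 30.0). DCAF1 had 43.9 CPM in the mean but 1.81 and 1.95 TPM, with its reads in replicate 1 at 5.93 times the prediction from TPM. CXXC4 had the fewest reads of this list, at 1.14 CPM.

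The repair genes that act after TDG were all 10 detected, from NEIL1 at 2.70 CPM to PARP1 at 866 CPM in the mean, with APEX1 at 203 and LIG3 at 89.3 CPM. No gene of this list was called. With 10 genes and 13.1% of all genes called, that count is not read as a trait of the list. Its median log2 difference was -0.025. Of 10 cytidine deaminases, 2 were detected, among them APOBEC3C with 29 and 44 reads. APOBEC3G followed with 10 and 13 reads, and APOBEC1 and APOBEC3A had no read in either library. The APOBEC3 genes are near-identical in part, so reads may be shared among them.

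Of 13 genes of the S-adenosylmethionine cycle, which supplies the methyl group, 12 were detected. AHCY, which clears the product that inhibits methyltransferases, was at 985 ± 9.69 CPM (SD, n = 2), SHMT2 at 594 ± 43.7 CPM (SD, n = 2) and MAT2A at 261 ± 2.50 CPM (SD, n = 2). SHMT2 and TYMS were called higher and MTR was called lower in replicate 2, where the test called 13.1% of all genes. MAT1A, the liver form of the synthetase, had 1 and 2 reads.

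Of 12 germline genes whose promoters are often silenced by methylation, 2 were detected. DPEP3 had 55.3 and 59.1 CPM, and TDRD9 had 20.7 and 24.9 CPM and was called higher in replicate 2. DAZL, SYCP1, HORMAD1 and TEX101 had no read in either library. The other 6 had between 1 and 12 reads in each library, TDRD1 8 and 7. With a threshold of 0.1 CPM, 5 of the 12 were detected.

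**Figure D4:**
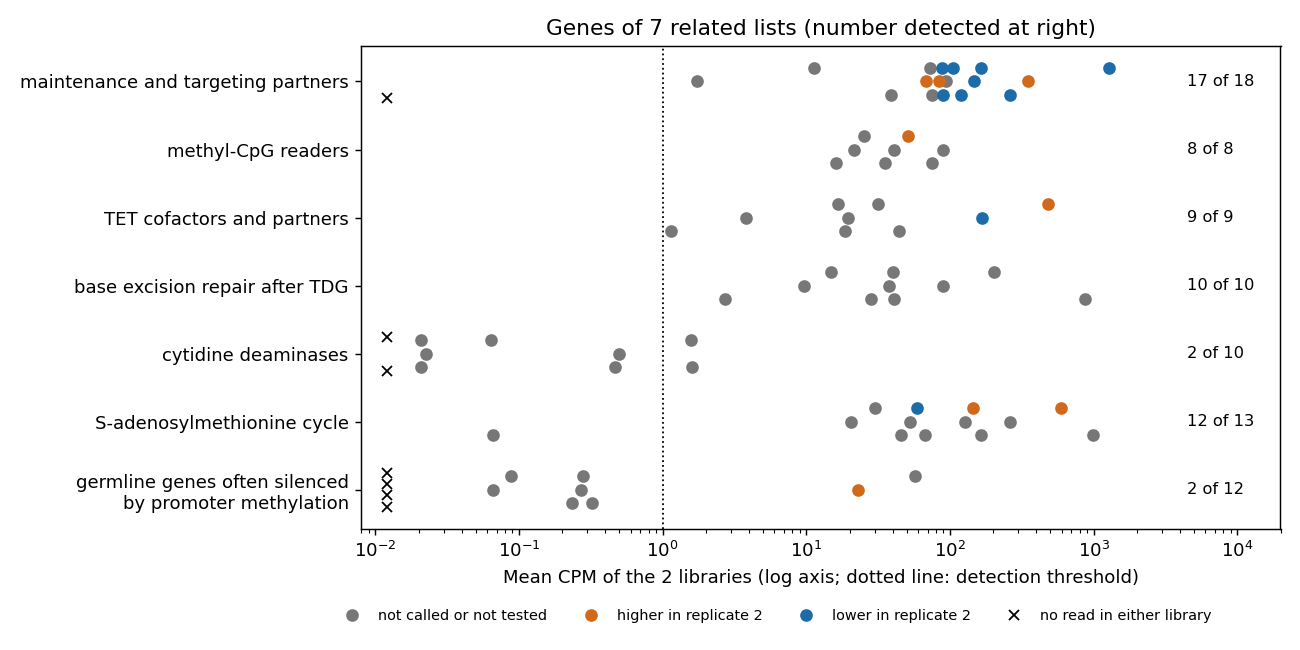
Mean CPM of the genes in the 7 lists on a log axis, with the number detected at right. Orange and blue points were called higher and lower in replicate 2, grey points were not called or not tested, and crosses at the left edge mark genes with no read, which have no place on the log scale. Of the maintenance and targeting partners 11 of 17 tested were called, where the test called 13.1% of all genes, and the deaminases and germline genes lie mostly left of the dotted threshold of 1 CPM.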

How the data were processed

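The study measured polyadenylated RNA of TCam-2 cells in 2 libraries made with a stranded kit, per the labels' protocols. The submitters' processing notes name Trim Galore 0.6.10, STAR 2.7.11a, Salmon 1.10.2, DESeq2 and GRCh38, without roles. The counter and its strand setting are not given in the sources used here. The deposited TPM per transcript were summed per gene through GENCODE 29 on GRCh38, which matched 201667 of 251955 transcripts, with 94.8% of TPM in each library. The deposited gene table is named as CPM, but its signal is whole reads of a gene over a factor of the library: 100% of values above 0 were whole multiples of 1.02 in replicate 1 and 1.12 in replicate 2, within 0.001 reads. Reads were recovered from these steps and given as CPM. No column of values was left unused (0 columns).

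Replicates were compared with edgeR 4.0.16 (binomTest on reads, TMM, filterByExpr, Benjamini-Hochberg), with DESeq2 1.42.0 size factors as an alternative. Of 200 genes changed 2-fold in simulated data over 15394 genes, 100% were recovered, with 15 unchanged genes called. The simulated libraries differed by counting noise alone, and the changed genes were drawn from those with many reads. The simulation therefore does not cover variation between replicates or smaller changes. Log2 differences use a pseudocount of 1 CPM and understate low genes. Without molecular identifiers, intervals and limits cover counting error alone, and p-values measure differences between 2 libraries. Catalytic motifs were sought in translated GENCODE coding sequences. The members and lists were chosen with earlier results of these data known. Named were the 10 genes, their transcripts with at least 1 TPM or 5% of the gene, and from each list the 3 highest, the lowest detected, those without a read and those called. Some items that the rule would name are not reported here.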

Additional observations from a re-analysis of the deposited data

How the results depend on the processing

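No paired analysis was possible because the samples used here form 1 group. The number of the 10 genes detected (10) and called between replicates (5) was the same under every alternative tried for it, and so was the number with the same leading transcript (10). With CPM per kb of merged exons, the ratios were 2.95 for DNMT3B to DNMT3A (1.02 by TPM), 0.530 for DNMT1 to DNMT3A plus DNMT3B (0.606), 1.12 for UHRF1 to UHRF2 (0.425), 0.468 for UHRF1 to DNMT1 (0.378), 18.9 for TET1 to TET2 (10.3), 3.59 for TET3 to TET2 (2.11) and 2.21 for writers to TETs (3.12). Merged exons include exons of transcripts with little or no TPM. With CPM per kb of TPM-weighted length, chosen after seeing the data, DNMT3B to DNMT3A was 0.887, UHRF1 to DNMT1 was 0.301, TET1 to TET2 was 11.1, TET3 to TET2 was 2.27 and writers to TETs was 3.87. With protein-coding transcripts alone, UHRF1 to UHRF2 was 0.616, UHRF1 to DNMT1 was 0.439, writers to TETs was 2.91 and the median share with a catalytic motif was 100% against 97.7%. The mean shares of UHRF2-201 and DNMT1-201 were then 89.0% and 60.5%, against 61.1% and 52.0%. The cause was not tested for these. Of 9 neighbouring pairs in the order 7 did not overlap, and 6 to 8 under the alternatives, some of which changed the order itself. Detected deaminases numbered 4 at 0.1 CPM and 0 at 5 CPM or with TPM, against 2, and germline genes 5 at 0.1 CPM against 2. Depth limits the TET2 ratio between replicates to 0.809 to 1.09. Leaving out a replicate leaves 1 library, so differences between replicates and the count of shared leading transcripts have no value there, while the median catalytic share was 97.0% to 98.5%.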

Other observations

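Genes next to these families by name or position were looked at after the values above were seen. TRDMT1, a relative of the DNA methyltransferases that acts on transfer RNA, had 7.17 and 7.75 CPM, and CXXC1, a reader of unmethylated CpG, had 68.8 and 70.1 CPM. Neither was called between the replicates. DNMT3L-AS1, annotated on the strand opposite DNMT3L, had 3 and 4 reads, but the transcript table lists it at 1.37 and 2.06 TPM. Of the exonic length of DNMT3L, 13.0% lies in exons on that strand. TET2-AS1 had no read. The pseudogenes DNMT3AP1, UHRF2P1, TET1P1 and TDGP1 had no read in the gene table, while the transcript table lists TET1P1 at 0.283 and 0.304 TPM. How reads that fit several places were counted is not given in the sources used here.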
